A study of Homo sapiens with 8 samples.

Results

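The 10 genes described here handle heme and iron: the heme oxygenases HMOX1 and HMOX2, biliverdin reductase BLVRA, the ferritin chains FTH1 and FTL, the transferrin receptor TFRC, the iron transporters SLC40A1 and SLC11A2, and the heme synthesis enzymes ALAS1 and FECH. They were chosen by gene name with earlier results of these data known, so counts among them are no independent support. Each matched 1 row of a table of 62649 genes. All 10 were among the 19122 genes that reached at least 1 TPM (transcripts scaled to a fixed library total) in at least 2 libraries. RNA was sequenced from AsPC-1 cells, a human pancreatic adenocarcinoma line derived from ascites, and from PANC-1 cells, a human line derived from a primary pancreatic carcinoma. In each line 1 library came from cells given vehicle, 1 from cells given 10 µM roseoflavin, 1 from cells given 1 nM trametinib and 1 from cells given both, each for 24 h after 3 days of culture in methylcellulose. Both lines are labelled wild type, and roseoflavin is an antibiotic analogue of riboflavin while trametinib inhibits the MEK kinases. Each of the 8 groups therefore holds 1 library. The tests take their spread from libraries of the other line or the other compound, and nothing in the labels speaks of repeated cultures.

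Heme oxygenases open the heme ring and release iron, carbon monoxide and biliverdin, which biliverdin reductase turns into bilirubin. Freed iron is stored in the ferritin shell, a mixture of heavy and light chains, while the transferrin receptor and the divalent metal transporter bring iron in and ferroportin lets it out. Much of this is set after transcription: in iron-poor cells iron regulatory proteins bind a hairpin called the iron-responsive element, which blocks translation of ferritin and ferroportin mRNAs and protects the transferrin receptor mRNA from decay. HMOX1 and the ferritin genes are also known targets of the transcription factor NRF2, and BACH1 represses them and leaves DNA when it binds heme.

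Hairpin matches in the ferritin, ferroportin and transferrin receptor mRNAs are shown because this control acts through such hairpins. They are matches to a strict pattern and need not include every known site. A search of the longest protein-coding transcript of each gene in GENCODE release 29 (GRCh38), on the sense strand, looked for a C, 5 bases of any kind, the loop letters CAGTG, 1 further base, and then 5 bases that pair with the first 5, G with T allowed. It found 7 sites of 29 bases in 4 of the 10 genes, and 291 of 19702 protein-coding genes (1.48%) held such a match in any transcript. Each site is written 5′ to 3′ on the strand of its gene, with the loop CAGTG in capitals. The 5′ UTR of FTH1 holds 1 site at chr11:61967574-61967602 on the minus strand, the 5′ UTR of FTL 1 site at chr19:48965335-48965363 on the plus strand, and the 5′ UTR of SLC40A1 1 site at chr2:189580661-189580689 on the minus strand.
FTH1: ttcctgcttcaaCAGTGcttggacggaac
FTL: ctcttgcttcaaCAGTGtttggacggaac
SLC40A1: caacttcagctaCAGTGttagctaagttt
The ferritin sites share 26 of 29 bases, and the SLC40A1 site shares 13 with that of FTH1. The 3′ UTR of TFRC holds 4 sites on the minus strand, at chr3:196050979-196051007, chr3:196050575-196050603, chr3:196050510-196050538 and chr3:196050463-196050491.
TFRC 1: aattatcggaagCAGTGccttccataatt
TFRC 2: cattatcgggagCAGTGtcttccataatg
TFRC 3: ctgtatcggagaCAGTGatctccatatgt
TFRC 4: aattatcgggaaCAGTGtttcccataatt
The TFRC sites share 9 to 11 of 29 bases with that of FTH1. HMOX1 lies at chr22:35380361-35394214 on the plus strand and SLC11A2 at chr12:50979401-51028566 on the minus strand. The motif as searched was not found in the transcripts used for HMOX1, HMOX2, BLVRA, SLC11A2, ALAS1 and FECH, which says only that these letters are not in those transcripts.

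Libraries were compared as TPM, a level per transcript length and per total, in which each library sums to 1000000 and no depth is kept. Genes of the mitochondrial genome took 41.2% to 44.1% of the total in the AsPC-1 libraries and 22.8% to 25.6% in the PANC-1 libraries, so every other gene of PANC-1 shares a larger remainder. Of the ductal keratins KRT8, KRT18 and KRT19 were at 1786 TPM or more in AsPC-1 and 852 TPM or more in PANC-1, and KRT7 was low, at 4.39 to 7.74 TPM and 3.26 to 3.84 TPM. EPCAM was at 1224 to 1485 TPM against 14.5 to 16.8 TPM. The 6 erythroid markers summed to at most 0.733 TPM in any library, with HBB listed at 0 in all 8. Of the 5 leukocyte and macrophage markers, the pan-leukocyte PTPRC reached at most 0.019 TPM, and CD163 and CSF1R at most 0.057 TPM. CD68 was at 108 to 114 TPM in AsPC-1 and 120 to 139 TPM in PANC-1, and CD14 at 3.3 to 4.1 TPM and 0.473 to 1.62 TPM. In RNA from a whole culture, fewer cells of a type and less RNA per cell cannot be told apart.

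Of the 10 genes, HMOX1, the inducible heme oxygenase, and SLC40A1 (ferroportin), the iron exporter, had the largest line differences, in opposite directions. All 10 genes passed the test of the line difference in level (limma, Benjamini-Hochberg adjusted p under 0.05), 5 higher in PANC-1 and 5 higher in AsPC-1, where 83.8% of all genes tested passed. The ranges of the 4 libraries of each line did not overlap for 9 of the 10 genes, and for 79.2% of all genes, so a difference between the lines is the common case. The median gene was 0.55 higher in PANC-1 on the log2(TPM + 1) scale. That median was 0.25 when mitochondrial genes were left out of the total and 0.04 after quantile normalization, so the differences between lines depend on the scaling. Relative to the median gene as deposited, the other line differences were -1.01 for HMOX2, 1.05 for BLVRA, -1.95 for FTH1, -6.40 for SLC40A1, -2.07 for SLC11A2, -0.85 for ALAS1 and 1.11 for FECH, and those of HMOX1, FTL and TFRC stand with their values.

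HMOX1 stood at 11.1 TPM with vehicle, 8.38 with roseoflavin, 12.4 with trametinib and 12.6 with both in AsPC-1. In PANC-1 it stood at 273 TPM with vehicle, 657 with roseoflavin, 257 with trametinib and 668 with both. The lowest PANC-1 library was thus far above the highest AsPC-1 library, by 5.13 ± 0.31 (SE) in the fit, or 4.58 relative to the median gene (limma adjusted p = 6.2e-06). HMOX2, the constitutive heme oxygenase, was at 52.3, 55.8, 50.2 and 61.8 TPM in AsPC-1 and at 40.5, 38.5, 39.9 and 39.8 TPM in PANC-1, in the same order of treatments, a difference of -0.46 ± 0.063 (limma adjusted p = 0.00044). It was -0.92 after quantile normalization and -0.84 with mitochondrial genes left out of the total. HMOX1 was therefore the minor heme oxygenase transcript in AsPC-1, at 0.150 to 0.247 of HMOX2, and the major one in PANC-1, at 6.42 to 17.1 times HMOX2. BLVRA, which acts after either oxygenase, was at 24.0 to 30.7 TPM in AsPC-1 and 88.4 to 91.2 TPM in PANC-1 (1.60 ± 0.072, limma adjusted p = 1.4e-06).

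Both ferritin chains were among the most abundant transcripts. FTH1, the heavy chain that oxidises iron as it enters the shell, was at 6576, 6273, 7125 and 7315 TPM in AsPC-1 with vehicle, roseoflavin, trametinib and both, ranking 15 to 16 among all genes of a library. In PANC-1 it was at 2241, 3062, 2138 and 3077 TPM, ranking 25 to 33 (-1.39 ± 0.11, limma adjusted p = 2.9e-05). FTL, the light chain that aids mineralisation of the core, was at 2823, 2706, 2758 and 3026 TPM in AsPC-1 and 2986, 4544, 2953 and 4714 TPM in PANC-1. Its ranges overlapped: the 2 PANC-1 libraries without roseoflavin lay below the highest AsPC-1 library. The FTL line difference of 0.39 ± 0.13 passed (limma adjusted p = 0.026), but it was 0.0011 (limma adjusted p = 0.99) without mitochondrial genes in the total, did not pass without the filter on low values, and did not pass when any 1 of the 4 libraries with roseoflavin was left out (0.29 to 0.35, adjusted p 0.066 to 0.083). Relative to the median gene FTL was at -0.16 as deposited and at 0.34 after quantile normalization, so its direction turned with the scaling. The ratio of FTH1 to FTL was 2.32 to 2.58 in AsPC-1 and 0.653 to 0.751 in PANC-1, with no overlap between the lines.

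**Figure D1:**
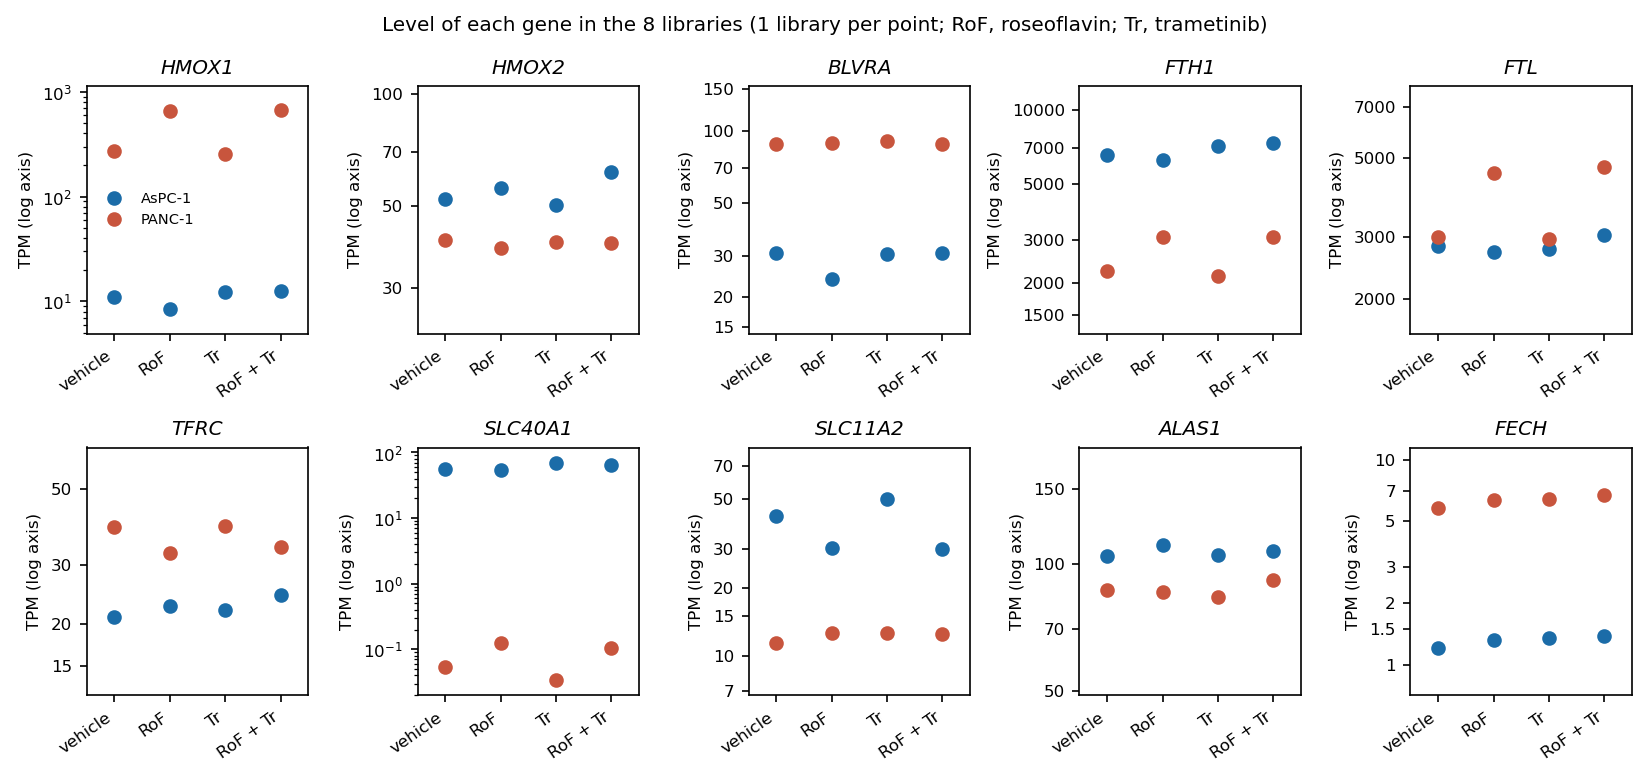
Level of each of the 10 genes in TPM (log axis) by treatment, 1 point per library, AsPC-1 in blue and PANC-1 in red. HMOX1 spans 8.38 to 12.6 TPM in AsPC-1 and 257 to 668 TPM in PANC-1, where HMOX1, FTH1 and FTL are higher and TFRC is lower in the 2 libraries with roseoflavin.

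Of the iron transporters, SLC40A1 and SLC11A2 were higher in AsPC-1, and TFRC was higher in PANC-1 on the deposited scale. SLC40A1 was at 56.5, 54.5, 70.0 and 64.2 TPM in AsPC-1 with vehicle, roseoflavin, trametinib and both, and at 0.053, 0.123, 0.034 and 0.105 TPM in PANC-1. The PANC-1 values are close to 0 and no fold change between them is given. On the log2(TPM + 1) scale the lines differed by -5.85 ± 0.080 (limma adjusted p = 8.2e-09). SLC40A1 met the filter on low values through AsPC-1 alone, which favours such a difference. SLC11A2, the divalent metal transporter DMT1, was at 42.0, 30.1, 49.6 and 29.8 TPM in AsPC-1 and at 11.4, 12.7, 12.6 and 12.5 TPM in PANC-1 (-1.51 ± 0.14, limma adjusted p = 5.6e-05). TFRC, which brings in iron bound to transferrin, was at 21.0, 22.6, 22.1 and 24.4 TPM in AsPC-1 and at 38.6, 32.4, 39.1 and 33.7 TPM in PANC-1 (0.65 ± 0.077, limma adjusted p = 0.00021). Relative to the median gene the TFRC difference was 0.09. It was 0.27 with mitochondrial genes left out of the total, and after quantile normalization it was 0.15 and did not pass (limma adjusted p = 0.13). PANC-1 thus combined more TFRC with less SLC11A2 and almost no SLC40A1 on the deposited scale.

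Of the synthesis enzymes, the first was higher in AsPC-1 and the last in PANC-1. ALAS1, the first and rate-limiting enzyme of heme synthesis in non-erythroid cells, was at 104 to 111 TPM in AsPC-1 and 83.2 to 91.5 TPM in PANC-1 (-0.29 ± 0.037, limma adjusted p = 0.00027). That difference was -0.73 after quantile normalization and -0.68 with mitochondrial genes left out of the total. FECH, which inserts iron into protoporphyrin, was at 1.22, 1.33, 1.35 and 1.39 TPM in AsPC-1 and 5.81, 6.36, 6.45 and 6.73 TPM in PANC-1 (1.66 ± 0.052, limma adjusted p = 2.7e-07), and the difference was 1.10 after quantile normalization. The erythroid counterpart of ALAS1, ALAS2, was at most 0.052 TPM in any library.

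In order of level, AsPC-1 had FTH1, FTL, ALAS1, SLC40A1, HMOX2, SLC11A2, BLVRA, TFRC, HMOX1 and FECH with vehicle. Over its 4 libraries the neighbours SLC40A1 and HMOX2, SLC11A2 and BLVRA, and BLVRA and TFRC overlapped. PANC-1 had FTL, FTH1, HMOX1, BLVRA, ALAS1, HMOX2, TFRC, SLC11A2, FECH and SLC40A1, and there FTL and FTH1, BLVRA and ALAS1, and HMOX2 and TFRC overlapped. HMOX1 was in the ninth place in AsPC-1 and in the third in PANC-1.

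With roseoflavin, PANC-1 had more HMOX1, FTL and FTH1 RNA and less TFRC RNA than its matched libraries without it, both with and without trametinib. HMOX1 was 2.41 times its vehicle level with roseoflavin and 2.60 times its trametinib level with both compounds. FTL was 1.52 and 1.60 times, FTH1 1.37 and 1.44 times, and TFRC 0.839 and 0.862 times the level in the matched library. For each of these 4 genes the 2 libraries with roseoflavin lay entirely on 1 side of the 2 without. The same held for HMOX2 (38.5 and 39.8 against 40.5 and 39.9 TPM). It also held for SLC40A1, near 0 (0.123 and 0.105 against 0.053 and 0.034 TPM). The share of all genes with such a separation was not counted.

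None of these differences passed the adjusted threshold. Within PANC-1 the fitted roseoflavin difference was 1.32 ± 0.15 for HMOX1 (SE, 95% interval 0.93 to 1.71, limma adjusted p = 0.12). For FTL it was 0.64 ± 0.060 (0.49 to 0.79, limma adjusted p = 0.11), for FTH1 0.49 ± 0.078 (0.29 to 0.69, adjusted p = 0.22) and for TFRC -0.23 ± 0.047 (-0.35 to -0.11, adjusted p = 0.34). No gene of the 19122 passed in this comparison (0.0%). At an unadjusted p under 0.05 there were 4 of the 10 members, 3 higher and 1 lower, against 9.47% of all genes. With the test limited to the 9368 genes averaging 10 TPM or more, 22 passed, and HMOX1 (limma adjusted p = 0.045) and FTL (adjusted p = 0.041) were 2 of them. Of the 15 alternative settings this was the only 1 in which either gene passed. HMOX1 and FTL were also the members at least 1.5-fold higher in both matched comparisons, where 1.42% of all genes moved at least 1.5-fold in 1 direction. The other 6 members differed by -0.04 to 0.09 within PANC-1.

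The share of mitochondrial genes was 25.6% with vehicle and 24.8% with trametinib in PANC-1, and 23.7% with roseoflavin and 22.8% with both. With those genes left out of the total, the differences were 1.28 for HMOX1, 0.60 for FTL, 0.45 for FTH1 and -0.27 for TFRC. The 5 leukocyte and macrophage markers summed to 121 to 126 TPM without and 138 to 140 TPM with roseoflavin in PANC-1, nearly all of it CD68, with PTPRC at no more than 0.019 TPM and CD163 listed at 0. The 4 mesenchymal markers summed to 3155 to 3256 TPM without and 3350 to 3416 TPM with roseoflavin, and the 5 ductal markers to 2884 to 3027 TPM and 2707 to 2775 TPM. The part of these markers in the iron gene differences was not tested.

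Ferritin as a whole shows the size of the PANC-1 difference in transcripts. FTH1 and FTL together made 5227 TPM with vehicle and 5091 TPM with trametinib, and 7606 TPM with roseoflavin and 7791 TPM with both. In AsPC-1 the sum was 9399, 8978, 9884 and 10340 TPM with vehicle, roseoflavin, trametinib and both, so PANC-1 with roseoflavin was below each AsPC-1 library. The FTH1 to FTL ratio in PANC-1 was 0.751 and 0.724 without roseoflavin and 0.674 and 0.653 with it. The processed pseudogenes of both chains have nearly the same sequence, and reads shared with them make small differences uncertain. The 25 FTH1 pseudogene rows summed to 9.23 to 32.8 TPM, 0.397% to 0.493% of FTH1, and the 16 FTL pseudogene rows to 0.0834% to 0.194% of FTL. FTH1P20, FTH1P2 and FTH1P8 were the highest of the first group, with FTH1P20 at 8.87 to 10.8 TPM in AsPC-1, and FTLP3 was the 1 row of the second with a mean of 1 TPM or more.

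**Figure D2:**
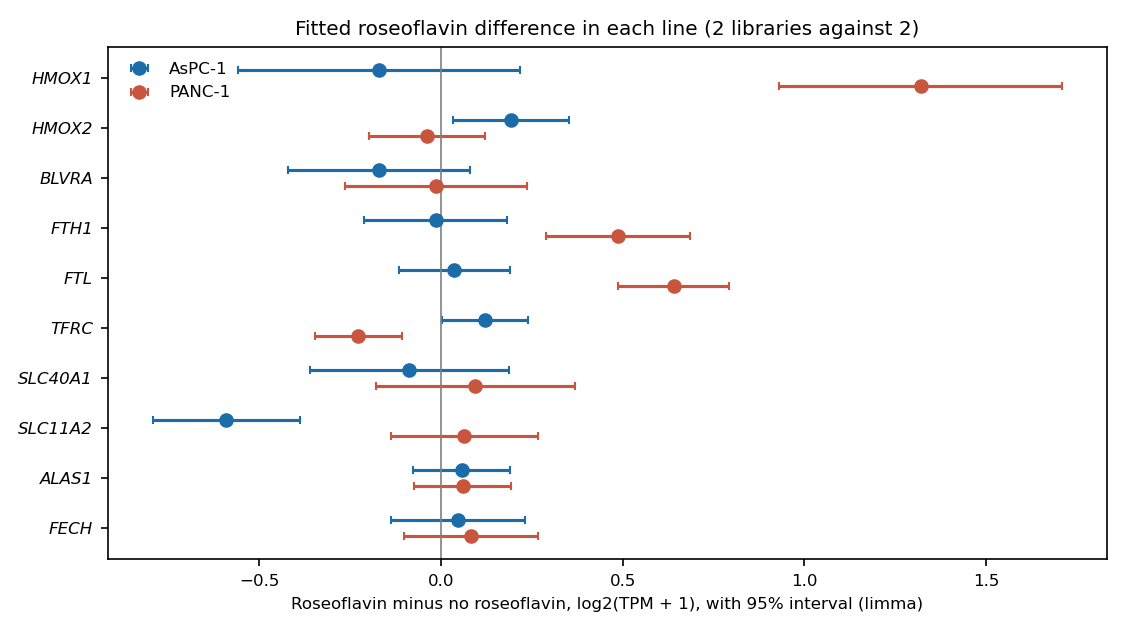
Fitted roseoflavin difference on the log2(TPM + 1) scale for each gene, AsPC-1 in blue and PANC-1 in red, each from 2 libraries with and 2 without roseoflavin; bars are 95% intervals from limma, not adjusted for the number of genes. HMOX1, FTL and FTH1 lie at 1.32, 0.64 and 0.49 in PANC-1 and at -0.17, 0.04 and -0.02 in AsPC-1. SLC11A2 lies at -0.59 in AsPC-1 and at 0.06 in PANC-1.

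With roseoflavin, AsPC-1 had less SLC11A2 RNA than its matched libraries, and this did not pass the test. SLC11A2 was at 42.0 TPM with vehicle and 30.1 TPM with roseoflavin, and at 49.6 TPM with trametinib and 29.8 TPM with both, which is 0.717 and 0.601 times the matched library. Both AsPC-1 libraries with roseoflavin were below both without it. For HMOX2, TFRC and ALAS1 both were above both without it, and the share of all genes so separated was not counted. The fitted SLC11A2 difference was -0.59 ± 0.079 (95% interval -0.79 to -0.39, limma adjusted p = 0.24). HMOX2 differed by 0.19 ± 0.062 (limma adjusted p = 0.48) and TFRC by 0.12 ± 0.047 (adjusted p = 0.51). HMOX1 differed by -0.17 ± 0.15 (limma adjusted p = 0.79), 0.755 times vehicle with roseoflavin alone and 1.02 times trametinib with both, so its comparisons did not share a direction. FTH1 and FTL differed by -0.02 and 0.04.

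No gene passed for roseoflavin within AsPC-1 (0.0%). At an unadjusted p under 0.05 there were 3 members, 2 higher and 1 lower, and 9.58% of all genes. None of the 10 moved at least 1.5-fold in both matched comparisons, as 1.08% of all genes did. Averaged over both lines, the roseoflavin main effect had no gene past the threshold (0.0%) and 1 member, FTL, at an unadjusted p under 0.05 (0.34 ± 0.13, limma adjusted p = 0.68), against 7.1% of all genes.

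The difference between the lines in their response was tested directly. It was 1.49 ± 0.22 for HMOX1 (PANC-1 minus AsPC-1, limma adjusted p = 0.22), 0.66 ± 0.11 for SLC11A2 (adjusted p = 0.25) and 0.60 ± 0.085 for FTL (adjusted p = 0.22). For FTH1 it was 0.50 ± 0.11 (limma adjusted p = 0.34), for TFRC -0.35 ± 0.066 (adjusted p = 0.29) and for HMOX2 -0.23 ± 0.088 (adjusted p = 0.49). No member passed, and 5 of 19122 genes did (0.0261%). At an unadjusted p under 0.05 there were 6 members, 4 positive and 2 negative, against 9.97% of all genes. The FTL difference was 0.35 after quantile normalization. BLVRA, SLC40A1, ALAS1 and FECH differed by 0.16, 0.18, 0.0034 and 0.04, with 95% intervals that all include 0. The SLC40A1 value rests on the pseudocount: with 0.1 in place of 1 it was 0.67 (limma adjusted p = 0.48), and 0.58 within PANC-1 (adjusted p = 0.51).

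The trametinib comparisons had no member past the threshold. Over both lines the members differed by -0.0035 to 0.15, none passed and none had an unadjusted p under 0.05, against 0.0% and 4.91% of all genes. Within AsPC-1 SLC40A1 was 1.24 times vehicle with trametinib and 1.18 times roseoflavin with both (0.27 ± 0.082, limma adjusted p = 0.40). It was the 1 member with an unadjusted p under 0.05, as had 11.1% of all genes, and no gene passed (0.0%). LUM, one of the 4 fibroblast markers, was also higher in the AsPC-1 libraries with trametinib, at 145 to 146 TPM against 103 and 111 TPM, with COL1A1 at no more than 0.121 TPM; whether it bears on SLC40A1 was not tested. Within PANC-1 the members differed by -0.03 to 0.10 and none had an unadjusted p under 0.05. There 2 genes passed (0.0105%) and 3.83% of all genes were under 0.05 unadjusted. The trametinib models hold a common roseoflavin effect, so line differences in roseoflavin response widen their spread. Within a line the SE was 0.47 for HMOX1 and 0.20 for FTL, against 0.15 and 0.060 for roseoflavin. For SLC40A1 it was 0.082 against 0.11. A p above 0.05 thus does not show that trametinib left these genes unchanged. The line difference in trametinib response had no gene past the threshold (0.0%) and no member, against 7.28% of all genes, at an unadjusted p under 0.05. No member moved at least 1.5-fold in both matched trametinib comparisons of a line, as 1.28% of all genes did in AsPC-1 and 1.25% in PANC-1.

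The HMOX1 and ferritin levels in PANC-1 were nearly the same with roseoflavin alone as with both compounds: 657 and 668 TPM for HMOX1, 4544 and 4714 TPM for FTL, and 3062 and 3077 TPM for FTH1. The test of the roseoflavin by trametinib interaction, over both lines, gave -0.20 to 0.25 for the members, with limma adjusted p = 0.9999 for each. No gene passed (0.0%), and no member was among the 2.8% of all genes with an unadjusted p under 0.05. The HMOX1 interaction had a 95% interval of -1.43 to 1.93. Its model holds a common roseoflavin effect for both lines, so their difference in roseoflavin response widens this interval. The test therefore does not show that the compounds act independently. In PANC-1 the matched HMOX1 differences were 1.26 without and 1.38 with trametinib, each from 1 library against 1.

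The genes whose pattern was most like that of HMOX1 were found by Pearson's r over the 8 libraries after the mean of each line was subtracted, among 8629 named genes averaging 10 TPM or more. FTH1 came first (r = 0.991), followed by the translation elongation factor gene EEF1A1 (0.990), which also has processed pseudogenes, the galectin-3 gene LGALS3 (0.988), the non-coding RNA host gene SNHG29 (0.981) and the zinc finger gene ZNF146 (0.980). FTL was at place 9 (r = 0.971), and TFRC, with r = -0.752, at place 8319. The points share treatments and lines, so these r values describe the 8 libraries and carry no p. With the line mean subtracted, HMOX1 ran from -0.71 to 0.67 in PANC-1 and from -0.36 to 0.18 in AsPC-1. The r values thus mostly follow the PANC-1 roseoflavin difference already given and add no separate support. The sizes were not alike: with roseoflavin in PANC-1, LGALS3 differed by 0.31 ± 0.047 (limma adjusted p = 0.20) and EEF1A1 by 0.18 ± 0.041 (adjusted p = 0.39), against 1.32 for HMOX1.

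**Figure D3:**
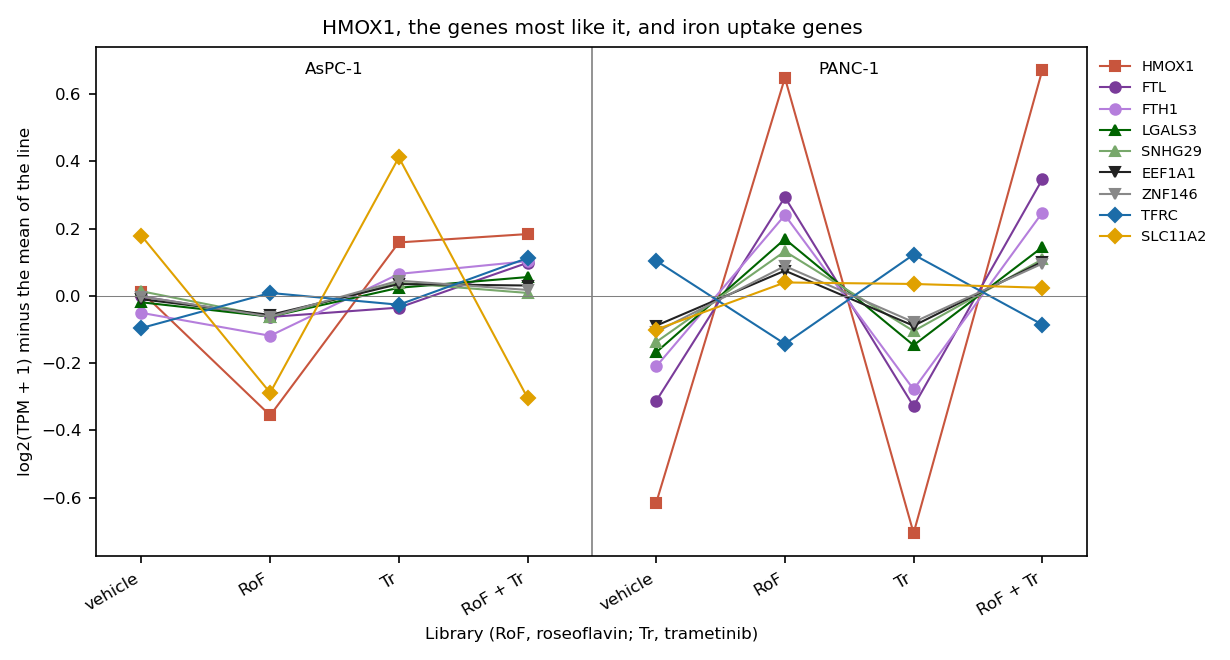
log2(TPM + 1) minus the mean of the line in each of the 8 libraries for HMOX1, the 5 genes most like it, FTL, TFRC and SLC11A2. In PANC-1 HMOX1, FTL and FTH1 alternate with roseoflavin and TFRC moves the other way, while SLC11A2 alternates in AsPC-1 and lies at 11.4 to 12.7 TPM in PANC-1.

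Other genes of heme and iron metabolism were read from 9 lists of 86 genes in all, of which 80 passed the filter on low values. In the line difference in level 67 of the 80 passed (83.8%), the same share as over all genes. None passed for roseoflavin within either line, for the difference between lines, or for trametinib. At an unadjusted p under 0.05 there were 15 of 80 (18.8%) for roseoflavin within PANC-1, 8 (10.0%) within AsPC-1 and 16 (20.0%) for the difference between the lines. Over all genes tested the shares were 9.47%, 9.58% and 9.97%, so the AsPC-1 share was that of all genes. The 10 members are in these lists and make 4, 3 and 6 of those counts. Members and lists were chosen with earlier results of these data known, so the higher shares are no independent support for a response.

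In heme breakdown, the list adds BLVRB, a flavin reductase that also reduces biliverdin. It was at 28.0 and 30.7 TPM in PANC-1 without roseoflavin, at 42.7 and 42.3 TPM with it, and at 70.4 to 77.4 TPM in all AsPC-1 libraries. The PANC-1 difference was 0.52 ± 0.065 (limma adjusted p = 0.14) and the difference between lines 0.56 ± 0.093 (adjusted p = 0.25). BLVRA, the other reductase, was at 88.4 and 91.2 TPM without and 89.1 and 88.7 TPM with roseoflavin in PANC-1. Of the 4 heme breakdown genes HMOX1 and BLVRB were positive and HMOX2 (-0.04) and BLVRA (-0.01) negative with roseoflavin in PANC-1, and 0 passed. In AsPC-1 1 was positive and 3 negative, and 0 passed.

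Among the 7 regulators of HMOX1, the roseoflavin difference was positive for 7 in PANC-1 (median 0.13) and for 2 in AsPC-1 (median -0.09), and 0 passed in either line. The medians over all genes were 0.0 and -0.03, and the share of all genes with a positive difference was not counted. BACH1, the heme-sensing repressor of HMOX1, was at 7.96 and 7.88 TPM without and 10.1 and 10.3 TPM with roseoflavin in PANC-1 (0.33 ± 0.054, limma adjusted p = 0.25), and at 36.3 to 41.2 TPM in AsPC-1. Its partner MAFG was at 53.0 and 51.7 TPM without and 60.9 and 61.6 TPM with roseoflavin in PANC-1 (0.22 ± 0.053, limma adjusted p = 0.40). NFE2L2, which encodes NRF2, was at 24.9 to 26.9 TPM in PANC-1 and 17.4 to 19.3 TPM in AsPC-1. KEAP1, which marks NRF2 for degradation, was at 59.9 to 66.4 TPM in PANC-1 and 40.9 to 45.9 TPM in AsPC-1. MAFK was at 82.9 to 90.2 TPM in PANC-1 and 44.0 to 54.9 TPM in AsPC-1. MAFF was at 6.78 to 7.92 TPM and 11.7 to 14.9 TPM, and BACH2 at 2.06 to 2.45 TPM and at most 0.045 TPM.

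In heme synthesis, 4 of the 8 tested genes were positive and 4 negative with roseoflavin in PANC-1, 0 passed, and the median was 0.0002. ALAD, the second enzyme of the path, was at 11.7 and 10.5 TPM without and 8.65 and 9.58 TPM with roseoflavin in PANC-1 (-0.25 ± 0.082, limma adjusted p = 0.47). CPOX, coproporphyrinogen oxidase, was at 15.3 and 15.7 TPM without and 14.0 and 13.1 TPM with roseoflavin in AsPC-1 (-0.18 ± 0.057, limma adjusted p = 0.47). Of the 8 heme transport genes 6 were positive with roseoflavin in PANC-1 and 0 passed. The heme chaperone PGRMC2 was at 40.9 and 41.9 TPM without and 46.2 and 47.3 TPM with roseoflavin there (0.17 ± 0.050, limma adjusted p = 0.44), its relative PGRMC1 at 108 to 121 TPM and the heme-binding HEBP1 at 8.46 to 11.1 TPM.

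In ferritin storage and its turnover, 5 of 6 tested genes were positive with roseoflavin in PANC-1 and 0 passed, with a median of 0.08 that lay well under the values of FTL and FTH1. NCOA4, the receptor that carries ferritin to the lysosome, was at 134 to 144 TPM in PANC-1 and 79.4 to 94.9 TPM in AsPC-1. PCBP2, an iron chaperone, was at 201 and 202 TPM without and 217 and 214 TPM with roseoflavin in PANC-1 (0.10 ± 0.037, limma adjusted p = 0.52). HERC2, the ligase that marks NCOA4 for degradation, was at 17.0 to 18.4 TPM in PANC-1 and 5.72 to 6.45 TPM in AsPC-1, and mitochondrial ferritin FTMT was listed at 0 in all libraries.

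Of the 11 iron uptake genes tested, 7 were negative and 4 positive with roseoflavin in AsPC-1, and 0 passed. At an unadjusted p under 0.05 there were 3 of the negative genes and 1 positive gene, TFRC, where 9.58% of all genes were. Beside SLC11A2 the negative ones were the metalloreductase STEAP2, at 48.4 and 50.4 TPM without and 42.3 and 43.6 TPM with roseoflavin (-0.20 ± 0.049, limma adjusted p = 0.40), and HFE, which binds the transferrin receptor (-0.18 ± 0.070, adjusted p = 0.51). SLC39A14, a metal importer, was at 68.8 to 81.4 TPM in AsPC-1 and 55.3 to 58.6 TPM in PANC-1. In iron export, HEPH, a ferroxidase that works with ferroportin, was at 6.77 to 8.91 TPM in AsPC-1 and listed at 0 in the 4 PANC-1 libraries. The line difference in level passed for all 3 iron export genes tested, as for 83.8% of all genes. Each of the 3 met the filter on low values through 1 line only, which favours such a difference, so the count is no support for it. SLC40A1 and HEPH were higher in AsPC-1, and the ferroxidase CP, named after its values were seen, was higher in PANC-1 (0.872 to 1.22 TPM against 0.014 to 0.047 TPM, 0.97 ± 0.093, limma adjusted p = 6.7e-05).

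The iron-responsive regulators lay near 0: their 7 genes had a median roseoflavin difference of 0.0035 in PANC-1 and -0.05 in AsPC-1, and 0 passed. FBXL5, the iron sensor that marks an iron regulatory protein for degradation, was at 19.5 to 21.2 TPM in PANC-1 and 12.6 to 17.1 TPM in AsPC-1. CUL1, the scaffold of its ligase complex, was at 60.6 to 65.0 TPM and 36.8 to 40.2 TPM, and CIAO1, of the cytosolic iron-sulfur assembly, at 48.8 to 54.1 TPM and 46.4 to 47.4 TPM. Of 26 genes of mitochondrial iron and iron-sulfur clusters, 14 were positive and 12 negative in PANC-1 and 0 passed. ABCB6, a porphyrin transporter, was at 20.8 and 21.1 TPM without and 25.5 and 24.5 TPM with roseoflavin in PANC-1 (0.24 ± 0.055, limma adjusted p = 0.38). NFS1, the cysteine desulfurase, was at 18.7 and 18.9 TPM without and 16.6 and 15.2 TPM with it (-0.23 ± 0.067, limma adjusted p = 0.44), and FDXR, a flavoprotein that feeds electrons to ferredoxins, at 16.4 and 17.5 TPM without and 14.4 and 15.7 TPM with it (-0.16 ± 0.051, adjusted p = 0.46).

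**Figure D4:**
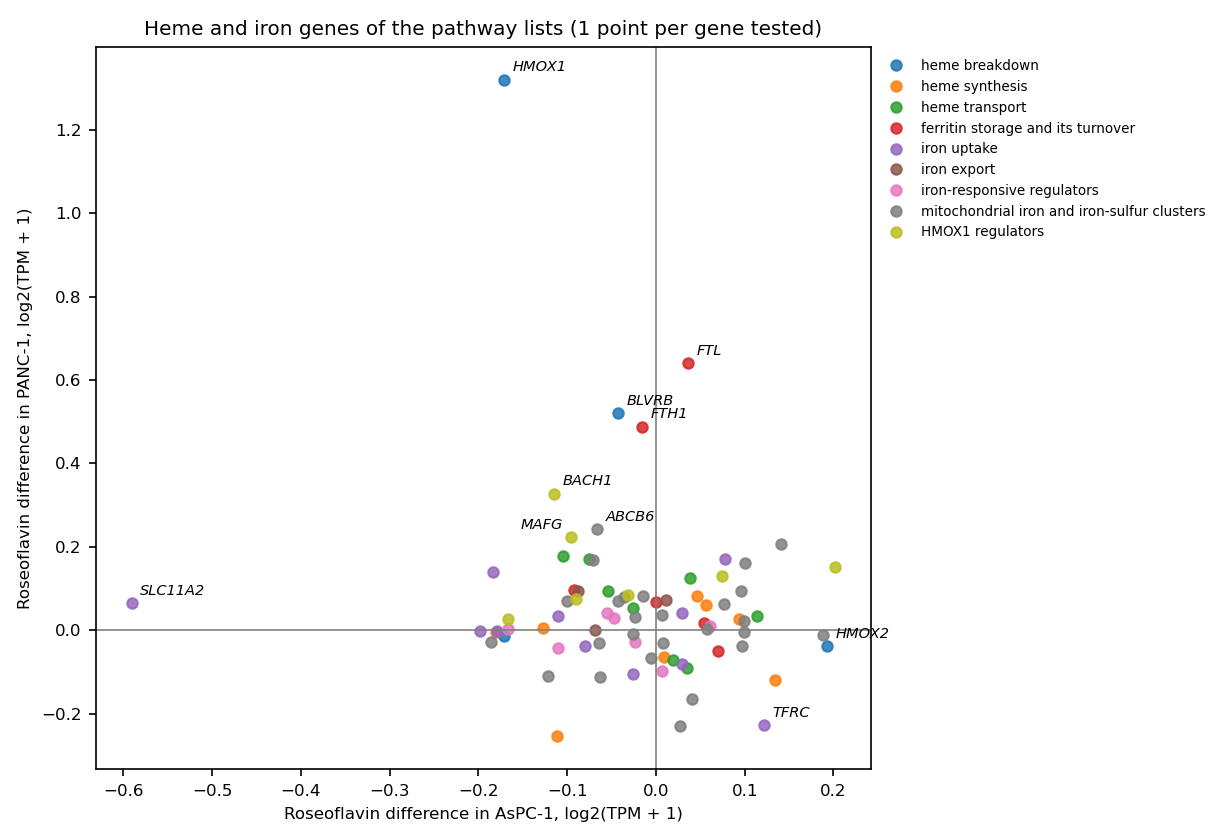
Fitted roseoflavin difference in AsPC-1 (x axis) against PANC-1 (y axis), both on the log2(TPM + 1) scale, for the 80 tested genes of the 9 lists, colored by list. HMOX1, FTL, BLVRB and FTH1 stand above the rest in PANC-1 at 1.32, 0.64, 0.52 and 0.49, and SLC11A2 stands apart in AsPC-1 at -0.59.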

How the data were processed

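RNA was sequenced from polyadenylated RNA with a stranded library kit, per the labels' protocols. The submitters' processing notes name STAR 2.7.3a, HTSeq 2.0.2 and hg38, and the annotation is not given in the sources used here. The authors deposited TPM per gene, named for line and treatment per the file headers. TPM keeps no depth, so no counting interval could be given. Tests ran on log2(TPM + 1), where changes of low genes come out too small. The 19122 genes that reached 1 TPM in 2 libraries entered the fit, made with limma version 3.58.1 under R 4.3.3 (eBayes with a trend), with Benjamini-Hochberg adjustment over all of them and a threshold of 0.05. The line difference and main effects came from an additive model of line, roseoflavin and trametinib. Changes within a line came from a model with that compound as a term for each line and the other compound common to both, and the interaction of the compounds from a model that also holds the line. Standard errors come from these models.

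The 10 genes and the pathway lists were chosen with earlier results of these data known. Named beyond the members were, in each list, the 3 other genes averaging 1 TPM or more that had the smallest p for the line difference in roseoflavin response, all HMOX1 regulators, the 3 highest pseudogenes of each ferritin chain averaging 1 TPM or more and the 5 genes most like HMOX1. Of the genes this rule covers, 1 is not reported here. Coordinates and hairpins come from GENCODE release 29. On simulated data of 19122 genes, the fit recovered 47.5%, 82% and 95.5% of genes changed by 0.5, 1 and 2 (log2) within PANC-1. For the difference between the lines it recovered 0%, 73% and 95%. The changed genes came only from those averaging above 10 TPM on the log2(TPM + 1) scale, and no other gene held a compound effect. The noise was normal, with its spread from a model with both compounds as terms for each line. These shares may therefore be too high for the real libraries. Alternatives were quantile normalization, mitochondrial genes left out, a pseudocount of 0.1, other filters, no trend, other terms and each library left out.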

Additional observations from a re-analysis of the deposited data

Results flagged for a closer look

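For 3 genes every matched comparison went 1 way in AsPC-1 and the other way in PANC-1. The share of all genes with such a pattern was not counted, so it does not set these 3 apart. With roseoflavin, TFRC was higher in both AsPC-1 comparisons and lower in both PANC-1 comparisons, a difference between the lines of -0.35 ± 0.066 (SE, limma adjusted p = 0.29). HMOX2 showed the same order, with a difference of -0.23 ± 0.088 (limma adjusted p = 0.49), but its PANC-1 changes were only -0.071 and -0.006 (log2). SLC40A1 differed between the lines by 0.18 ± 0.15 with roseoflavin (limma adjusted p = 0.73) and by -0.29 ± 0.12 with trametinib (adjusted p = 0.67), with PANC-1 levels of no more than 0.123 TPM. None of these tests of the difference passed.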

How the results depend on the processing

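No paired analysis was possible because each group holds 1 library and no replicate numbers are given. DESeq2 was not run, since the values are not counts. Of 586 recomputed values of the 10 genes, 555 kept their direction and side of the threshold, 22 reversed, 7 lost a call and 2 gained one. The cause was not tested. None of the reversed values had passed. FECH could not be tested with a mean of at least 10 TPM required.

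Reversals by scaling were small values. FTH1 within AsPC-1 became 0.010 with mitochondrial genes left out. The line difference in roseoflavin response became -0.017 (quantile normalization) and -0.058 (mitochondrial genes left out) for ALAS1, and -0.032 and -0.021 for FECH. Leaving out 1 library gave roseoflavin differences within AsPC-1 of -0.43 to 0.085 for HMOX1, -0.12 to 0.087 for FTH1, -0.044 to 0.12 for FTL and -0.21 to 0.034 for SLC40A1. Within PANC-1 it gave -0.080 to 0.053 for BLVRA, -0.0044 to 0.19 for SLC40A1, -0.0024 to 0.13 for SLC11A2 and -0.0018 to 0.12 for ALAS1. For the line difference it gave -0.0087 to 0.32 for BLVRA and -0.059 to 0.066 for ALAS1.

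The count of genes past the threshold for the line difference in level was 8388 of the 9368 genes averaging 10 TPM or more. For roseoflavin within AsPC-1 the count, 0 in the model reported, was 1 with a pseudocount of 0.1, 10 with no filter and 7 with no trend. Within PANC-1, also 0, it was 2 with a pseudocount of 0.1, 2 with no filter, 4 with no trend and 22 with a mean of at least 10 TPM, where 2 members passed. For the line difference in roseoflavin response, 5 as reported, it was 8 with a pseudocount of 0.1 and 10 with no trend. It was 0 with quantile normalization, mitochondrial genes left out, no filter, both compounds by line, and 0 to 0 without any 1 library. For trametinib within AsPC-1, 0 as reported, it was 11 with no filter and 9 with no trend. Within PANC-1, 2 as reported, it was 1 with quantile normalization, 8 with a pseudocount of 0.1, 33 with no filter, 16 with no trend, 0 with a mean of at least 10 TPM, 0 with both compounds by line, and 0 to 0 without any 1 library. For the line difference in trametinib response, 0 as reported, it was 2 with mitochondrial genes left out, 4 with a pseudocount of 0.1, 2 with no filter and 16 with no trend.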
